A study of Homo sapiens with 5 samples.

Results

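The genes described are the enzymes of glycolysis, of the pentose phosphate pathway and of the tricarboxylic acid (TCA) cycle, with the enzymes that link them at pyruvate. Of 56 listed genes, 48 were measured among the 7713 genes named on the array, each by 1 probe set. A probe set is a group of short probes summarised as 1 value, and some probe sets can bind several transcripts. GPI, DLAT, CS, DLST, SUCLG2, FH, RPIA and RPE were not analysed here. Expression was measured on 5 Affymetrix arrays of KMH2 (also written KM-H2), an established cell line of Hodgkin lymphoma. Both groups grew in RPMI medium with FCS and pen/strep for 16 hours. The treated cells received LY294002 at 30 uM (2 arrays) and the controls its solvent, DMSO (3 arrays). LY294002 inhibits phosphoinositide 3-kinase (PI3K) and is known to act on mTOR and BET bromodomain proteins too. The study planned triplicates in both groups and left out an array with high background. The labels name no engineered allele and a single line, and the comparison asks how its genes respond to the inhibitor.

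Glycolysis splits glucose into pyruvate in the cytosol: its upper steps spend ATP to phosphorylate and cleave the sugar, and its lower steps regain ATP. Pyruvate is then reduced to lactate or enters mitochondria, where pyruvate dehydrogenase and the TCA cycle oxidise it, while the pentose phosphate pathway draws glucose 6-phosphate off to make NADPH and ribose. PI3K signalling through AKT and mTOR is known to promote glucose uptake and glycolysis in B cells, and HIF-1 and MYC are known activators of many of these genes.

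Values are the deposited log2 probe set values, and a fold change is the LY294002 mean minus the DMSO mean on that scale. Array medians lay between 6.26 and 6.29, and upper quartiles between 7.59 and 7.62, except for 7.69 on the first LY294002 array. TNFRSF8, the gene of the Hodgkin cell marker CD30, read 8.09 to 8.49 with DMSO and 7.71 and 7.39 with LY294002, and IRF4, another such marker, 8.15 to 8.35 and 8.90 and 8.87. Of the B cell markers, CD79A and CD79B read 5.17 to 6.21, below the array medians, while CD22 read 7.55 to 7.71. MS4A1 read 10.24 to 10.57 with DMSO and 9.59 and 9.25 with LY294002, and BLNK 6.96 to 7.40 and 5.59 and 5.75. The myeloid markers CD14 and CSF1R and the epithelial markers EPCAM, CDH1 and KRT8 read below the array medians, and the epithelial KRT18 read 6.29 on all 5 arrays. The T cell gene CD3D read 8.70 to 8.97. The fibroblast marker COL1A1 read 6.66 to 7.14 with DMSO and 6.66 and 6.01 with LY294002, with overlap. COL1A2, another fibroblast marker, read 6.14 to 6.28 with DMSO and 5.97 and 6.20 with LY294002, also with overlap. The part of these marker differences in the results below was not tested. Nothing in the labels says that the arrays came from separate cultures, so the spread behind each p-value may be technical. Of the 48 enzyme genes, 17 held an identical value on at least 2 arrays of a group.

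With LY294002, 3 of the 48 enzyme genes fell, namely LDHA, PGAM1 and PGK1, and 1 rose, PGLS. Over all 7713 genes 0.298% fell and 0.609% rose, 0.908% in all, by the same rule, a limma adjusted p under 0.05. The falls that passed lay at the lower end of glycolysis and at lactate, and the rise in the pentose phosphate pathway. In upper glycolysis 0 genes passed, but its median log2 fold change was below that of lower glycolysis (-0.21 against -0.12). The latter is the value of PKLR, an isozyme of liver and red cells whose groups overlapped. The means were -0.32 and -0.21. Without probe sets with identical values in a group, the medians were close, at -0.32 (8 genes) and -0.31 (6 genes). Log2 fold changes were below 0 for 37 of the 48 genes, against 55.5% of all genes, and their median was -0.09, against -0.011. The count of 37 was 30 without LY294002 replicate 2, 33 without DMSO replicate 2 and 35 to 38 without any other array. The share of all genes below 0 was not counted in these settings. Both LY294002 arrays lay below all DMSO arrays for 14 of the 48 (13.4% of all genes) and above them for 6 (16.2% of all genes). In RNA of whole cultures, less RNA per cell and fewer cells of a kind cannot be told apart. Leaving out any 1 array, DMSO or LY294002, ended all 4 calls. In the limma fits without a DMSO array 0 of the 48 passed, with 14 to 15 of them at an unadjusted p under 0.05. Of all 7713 genes 0 to 4 passed in these fits, and 946 to 1165 had an unadjusted p under 0.05.

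**Figure D1:**
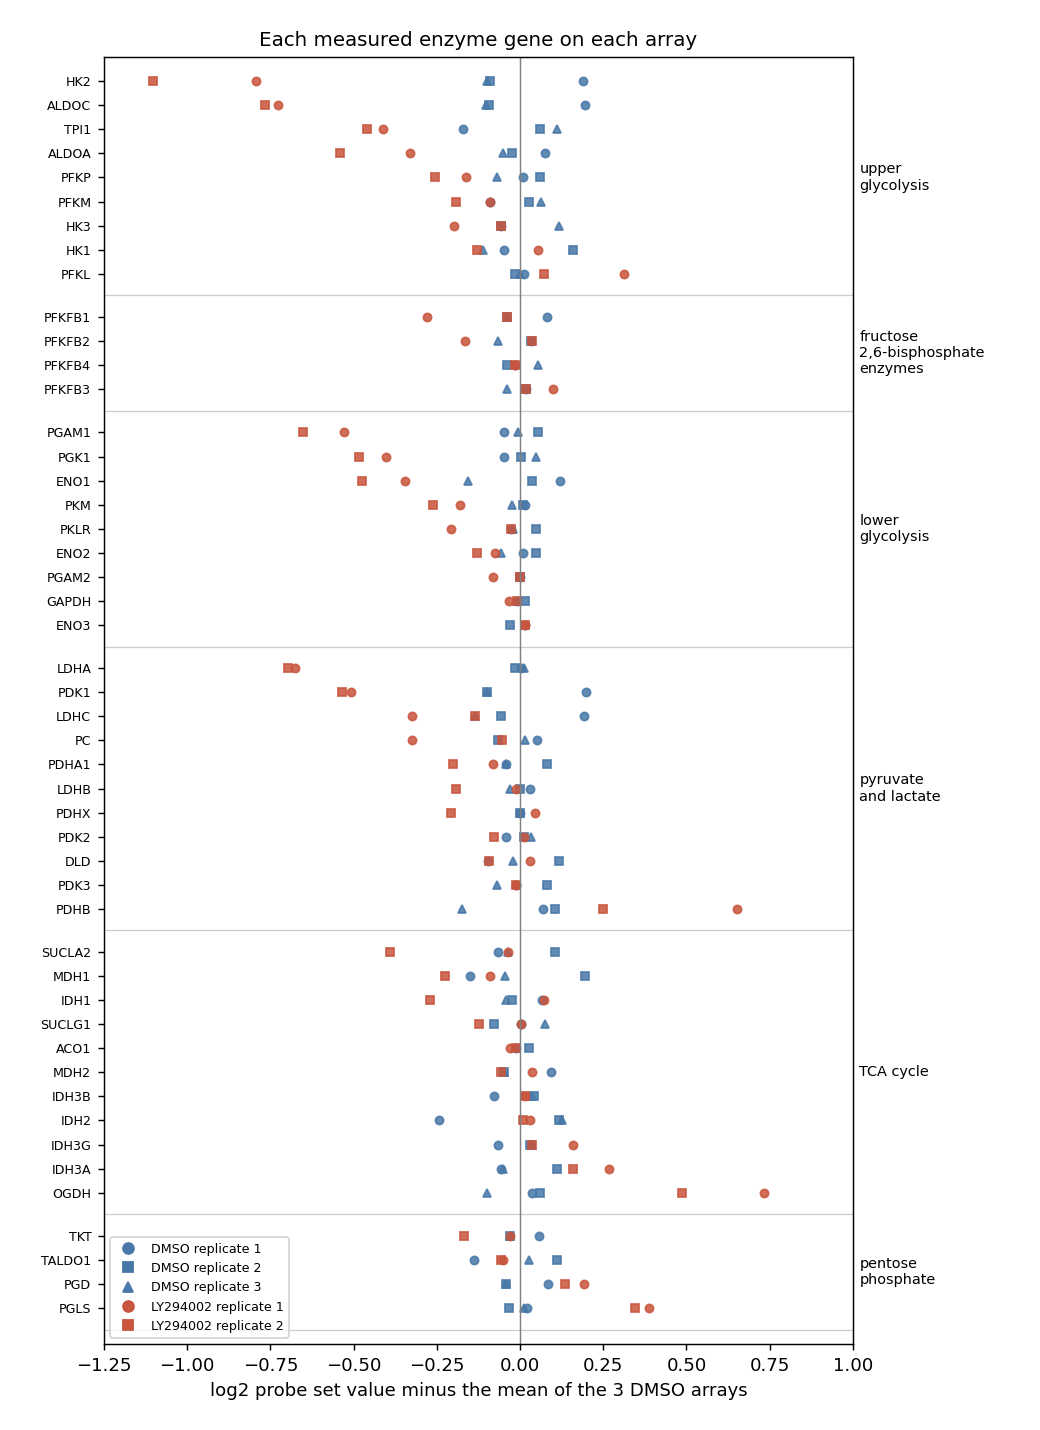
The 48 enzyme genes are in rows, ordered by step and by change, and the horizontal axis is the log2 value on each array minus the mean of the 3 DMSO arrays. HK2, ALDOC, LDHA and PGAM1 lie farthest to the left with LY294002, and OGDH, PDHB and PGLS farthest to the right.

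In upper glycolysis 9 genes were measured and 0 passed the limma threshold, while 5 were lower and 0 higher at an unadjusted p under 0.05. Over all genes these shares were 6.5% and 10.6%. The median log2 fold change was -0.21, and 8 of 9 were below 0. Hexokinase 2, HK2, the inducible enzyme that traps glucose as glucose 6-phosphate, had the lowest fold change of the 48. It read 8.07, 7.79 and 7.78 on DMSO replicates 1, 2 and 3, and 7.09 and 6.78 on LY294002 replicates 1 and 2. The groups did not overlap, and DMSO replicate 1 stood above the other DMSO arrays. The difference was -0.95 ± 0.14 (standard error), a 1.93-fold lower mean (limma adjusted p = 0.073). HK1, the constitutive hexokinase, read 9.46 to 9.73 with DMSO and 9.63 and 9.45 with LY294002. These values overlapped, with a difference of -0.037 ± 0.11 (adjusted p = 0.861), or 0.042 without DMSO replicate 2 and 0.055 without LY294002 replicate 2. Relative to its DMSO mean, HK2 minus HK1 was 0.23, -0.25 and 0.01 on the DMSO arrays and -0.85 and -0.97 on the LY294002 arrays. HK3, the third hexokinase measured, was at -0.13 ± 0.08.

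Aldolase cleaves fructose 1,6-bisphosphate. ALDOC, its brain-type isozyme, read 9.03, 8.74 and 8.73 with DMSO and 8.11 and 8.06 with LY294002. All LY294002 values were lower, and DMSO replicate 1 was again the highest. The difference was -0.75 ± 0.11 (adjusted p = 0.0706). ALDOA, the widely expressed isozyme, read 11.08, 10.98 and 10.95 with DMSO and 10.67 and 10.47 with LY294002, a difference of -0.44 ± 0.08 (adjusted p = 0.0973). Its probe set is of a kind that can bind similar transcripts. TPI1, which interconverts the triose phosphates, read 10.81, 11.04 and 11.09 with DMSO and 10.56 and 10.51 with LY294002, a difference of -0.44 ± 0.10 (adjusted p = 0.131). In ALDOA and TPI1 as well, the groups did not overlap. HK2 and ALDOC passed the threshold after quantile normalization (adjusted p = 0.0248 and 0.0287), after median centring (0.0498 and 0.0466), without dim probe sets (0.0362 and 0.036) and without probe sets with tied values (0.00557 and 0.00609). ALDOA and TPI1 passed after quantile normalization (0.0367 and 0.0274) and without probe sets with tied values (0.0196 and 0.0283). More of all genes tested passed in these settings too: 3.88%, 1.91%, 4.37% and 10.7%, in the order given for HK2, against 0.908% in the main fit. HK2 and ALDOC did not pass when the variance prior followed intensity and was robust (0.051 and 0.053). Nor did they without DMSO replicate 1 (0.144 and 0.0755) or 2 (0.218 and 0.205). With the replicate number as a block the adjusted p was 0.348 for HK2, ALDOC and ALDOA and 0.457 for TPI1.

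Phosphofructokinase, the committed step, has a platelet (PFKP), a muscle (PFKM) and a liver (PFKL) isozyme. PFKP read 9.89 to 10.02 with DMSO and 9.80 and 9.71 with LY294002, a difference of -0.21 ± 0.06 with no overlap (adjusted p = 0.174). PFKM was at -0.14 ± 0.06, with LY294002 replicate 1 equal to DMSO replicate 1 at 9.44. PFKL had the opposite sign: it read 7.58 to 7.61 with DMSO and 7.91 and 7.66 with LY294002, a difference of 0.19 ± 0.08 (adjusted p = 0.326). The PFKFB enzymes make and degrade fructose 2,6-bisphosphate, the activator of phosphofructokinase. Their 4 genes had a median of -0.04 and a range from -0.16 (PFKFB1) to 0.06 (PFKFB3). For all 4 the groups overlapped, 0 passed limma's threshold and 0 had an unadjusted p under 0.05. Each of the 4 held identical values on at least 2 arrays of a group, and PFKFB2 and PFKFB3 read below the array medians.

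**Figure D2:**
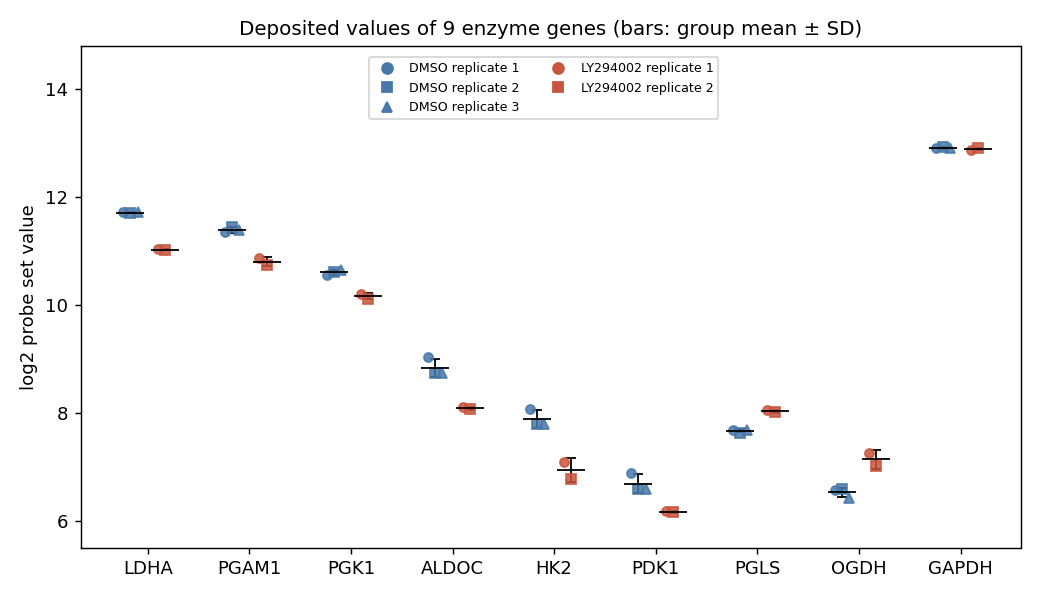
Deposited log2 values (vertical axis) of 9 enzyme genes on each array, with horizontal bars for the group mean and vertical bars for the SD of 3 DMSO and 2 LY294002 arrays. LDHA reads 11.69 to 11.72 with DMSO and 11.01 and 11.03 with LY294002, while the GAPDH groups overlap at 12.87 to 12.92.

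In lower glycolysis 2 of 9 genes fell and 0 rose, with a median of -0.12 and 8 of 9 below 0. PGAM1, the phosphoglycerate mutase of most tissues, read 11.34, 11.45 and 11.39 with DMSO and 10.86 and 10.74 with LY294002. The gap between the groups was several times the spread within either. It fell by 0.59 on the log2 scale (standard error 0.05, 1.51-fold, limma adjusted p = 0.0352; 0.0721 to 0.185 with an array left out). PGK1, the phosphoglycerate kinase that makes the first ATP of the pathway, read 10.55, 10.60 and 10.65 with DMSO and 10.20 and 10.12 with LY294002. It fell by 0.44 (standard error 0.05, 1.36-fold, limma adjusted p = 0.0429; 0.0799 to 0.187 with an array left out). The groups were again separate. The probe sets of all 4 genes that passed (PGAM1, PGK1, LDHA and PGLS) are marked as shared by several transcripts and can bind those of related copies, which makes them uncertain readings of a single gene.

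Enolase 1, ENO1, the main enolase of proliferating cells, read 11.23, 11.15 and 10.96 with DMSO and 10.77 and 10.64 with LY294002. The DMSO arrays were spread, but the groups did not overlap, and the difference was -0.41 ± 0.10 (adjusted p = 0.151). PKM, pyruvate kinase, the last ATP-making step, read 11.97, 11.96 and 11.93 with DMSO and 11.77 and 11.69 with LY294002. Its difference of -0.22 ± 0.04 also came without overlap (adjusted p = 0.085). The neuronal enolase ENO2 was at -0.10 ± 0.04, also separate by a narrow margin. The isozymes of muscle, liver and red cells differed by little: PGAM2 was at -0.041 ± 0.036, ENO3 at 0.016 ± 0.031 and PKLR at -0.12 ± 0.07, and the groups overlapped in each. PGAM2 read 4.66 to 4.74 and ENO3 5.91 to 5.96, below the array medians, where dim probe sets can show little change.

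GAPDH, the dehydrogenase between TPI1 and PGK1 and a common reference gene, stood at -0.021 ± 0.028 (adjusted p = 0.693), with values of 12.90, 12.92 and 12.90 with DMSO and 12.87 and 12.90 with LY294002. Its 3 control probe sets, which lie at the 5' end, in the middle and at the 3' end of the transcript, differed by -0.08, -0.05 and -0.05. Each was smaller than the change of its neighbours TPI1 and PGK1. GAPDH reads at the top of the array's range, at the 99.9th percentile of all probe sets, where a bright probe set can also understate a change. Its probe set is also of the kind that can bind similar transcripts. Neither point was tested.

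**Figure D3:**
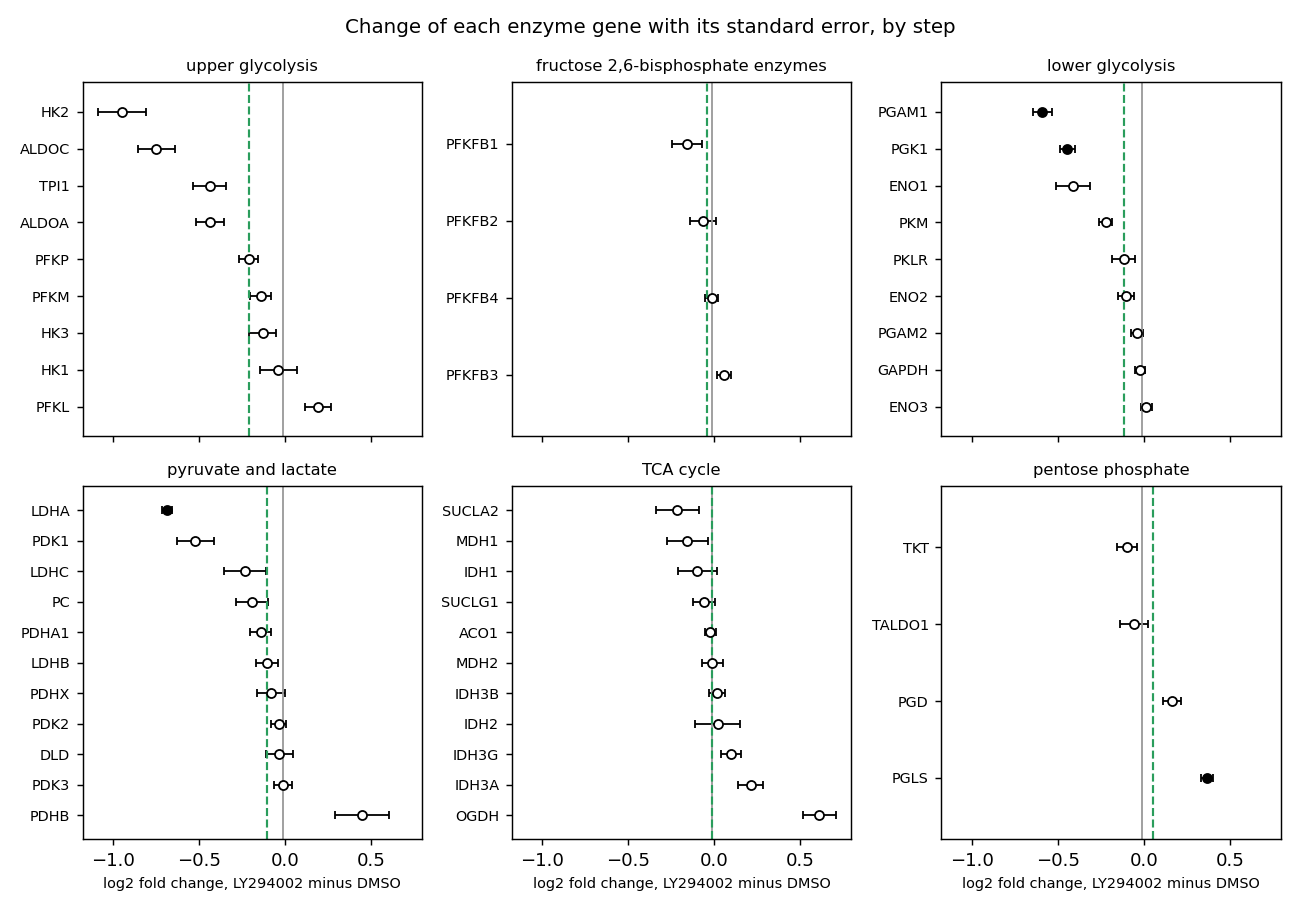
Log2 fold change (LY294002 minus DMSO, horizontal axis) of each enzyme gene with its standard error, in 6 panels by step. Filled points passed the adjusted threshold; the grey line is the median of all genes (-0.011) and the dashed green line that of the panel, from -0.21 in upper glycolysis to 0.05 in the pentose phosphate pathway.

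At pyruvate, 1 of 11 genes fell and 0 rose, with a median of -0.10 and 10 of 11 below 0. LDHA, the lactate dehydrogenase subunit that favours lactate formation, read 11.71, 11.69 and 11.72 with DMSO and 11.03 and 11.01 with LY294002. The arrays within a group were almost level, and the groups lay far apart. It fell by 0.69 (standard error 0.03, 1.61-fold, limma adjusted p = 0.00626), the 6th smallest p of all genes, and its adjusted p was 0.0685 to 0.124 with an array left out. LDHB, the subunit that favours pyruvate, read 11.82 to 11.88 with DMSO and 11.84 and 11.66 with LY294002, with overlap and a difference of -0.10 ± 0.06 (adjusted p = 0.448). Relative to its DMSO mean, LDHA minus LDHB was -0.03, -0.01 and 0.04 on the DMSO arrays and -0.66 and -0.50 on the LY294002 arrays. The testis isozyme LDHC was at -0.23 ± 0.12, on a dim probe set.

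The pyruvate dehydrogenase kinases switch off pyruvate dehydrogenase. PDK1 read 6.88, 6.59 and 6.59 with DMSO and 6.18 and 6.15 with LY294002, a difference of -0.52 ± 0.11 with no overlap (adjusted p = 0.117). DMSO replicate 1 was the highest array, as for HK2 and ALDOC, and without it the difference was -0.42. PDK2 (-0.034 ± 0.044) and PDK3 (-0.011 ± 0.054) overlapped between groups. Of the subunits of the dehydrogenase itself, PDHB was at 0.45 ± 0.16 (adjusted p = 0.264), with 9.29, 9.33 and 9.05 with DMSO and 9.87 and 9.47 with LY294002. LY294002 replicate 1 carried much of this: the difference was 0.25 without it and 0.65 without LY294002 replicate 2. The partner subunit PDHA1 was at -0.14 ± 0.06, PDHX at -0.08 ± 0.08 and DLD, which pyruvate and 2-oxoglutarate dehydrogenases share, at -0.032 ± 0.08. PC, pyruvate carboxylase, which refills the cycle with oxaloacetate, was at -0.19 ± 0.09, with LY294002 replicate 1 low at 5.76 and replicate 2 within the DMSO range. PKM minus PDHA1, which compares the step before pyruvate with that after it, was -0.10 and -0.06 on the LY294002 arrays and -0.07 to 0.06 on the DMSO arrays.

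The TCA cycle genes were divided in sign: 6 of 11 were below 0 and 5 above, with a median of -0.010. The 11 include ACO1, IDH1 and MDH1, whose enzymes work in the cytosol and which were each below 0. After quantile normalization IDH3B and IDH2 turned below 0, at -0.056 and -0.034. With limma, 0 of 11 passed, and 2 were higher and 0 lower at an unadjusted p under 0.05 (10.6% and 6.5% of all genes). In 0 of 11 did both LY294002 arrays lie below the DMSO range (13.4% of all genes). OGDH, the first subunit of 2-oxoglutarate dehydrogenase, had the highest fold change of the 48. It read 6.56, 6.59 and 6.43 with DMSO and 7.26 and 7.01 with LY294002. The groups were separate, and the difference was 0.61 ± 0.10, 1.53-fold (adjusted p = 0.0767). OGDH passed after quantile normalization (0.0298), without dim probe sets (0.0403) and without probe sets with tied values (0.00907). In these settings 3.88%, 4.37% and 10.7% of all genes tested passed. OGDH did not pass after median centring (0.0593) or with the robust prior that followed intensity (0.0555). With the replicate number as a block its adjusted p was 0.381. IDH3A, the catalytic subunit of the NAD-dependent isocitrate dehydrogenase, read 7.69 to 7.86 with DMSO and 8.02 and 7.91 with LY294002, a difference of 0.21 ± 0.07 without overlap (adjusted p = 0.252). Its partner subunits IDH3G (0.10 ± 0.06) and IDH3B (0.016 ± 0.048) overlapped between groups. The NADP-dependent IDH1 of the cytosol was at -0.10 ± 0.11 and IDH2 of mitochondria at 0.020 ± 0.13. SUCLA2 and SUCLG1, subunits of succinyl-CoA ligase, were at -0.21 ± 0.12 and -0.06 ± 0.07. The malate dehydrogenases MDH1 of the cytosol and MDH2 of mitochondria were at -0.16 ± 0.12 and -0.010 ± 0.062, and ACO1, the cytosolic aconitase that also binds iron-responsive RNA, at -0.022 ± 0.03.

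In the pentose phosphate pathway 1 of 4 genes rose and 0 fell. PGLS, the lactonase of the oxidative branch, read 7.69, 7.63 and 7.68 with DMSO and 8.05 and 8.01 with LY294002. The arrays of each group lay close together. It rose by 0.37 ± 0.03, 1.29-fold (limma adjusted p = 0.0348; 0.051 when the variance prior followed intensity and was robust, and 0.0698 to 0.173 with an array left out). PGD, the next enzyme of that branch, which yields NADPH, read 9.96, 9.83 and 9.83 with DMSO and 10.07 and 10.01 with LY294002, a difference of 0.16 ± 0.05 without overlap (adjusted p = 0.245). The enzymes of the non-oxidative branch, which return sugars to glycolysis, were at -0.10 ± 0.06 (TKT) and -0.05 ± 0.08 (TALDO1). Both overlapped between groups.

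**Figure D4:**
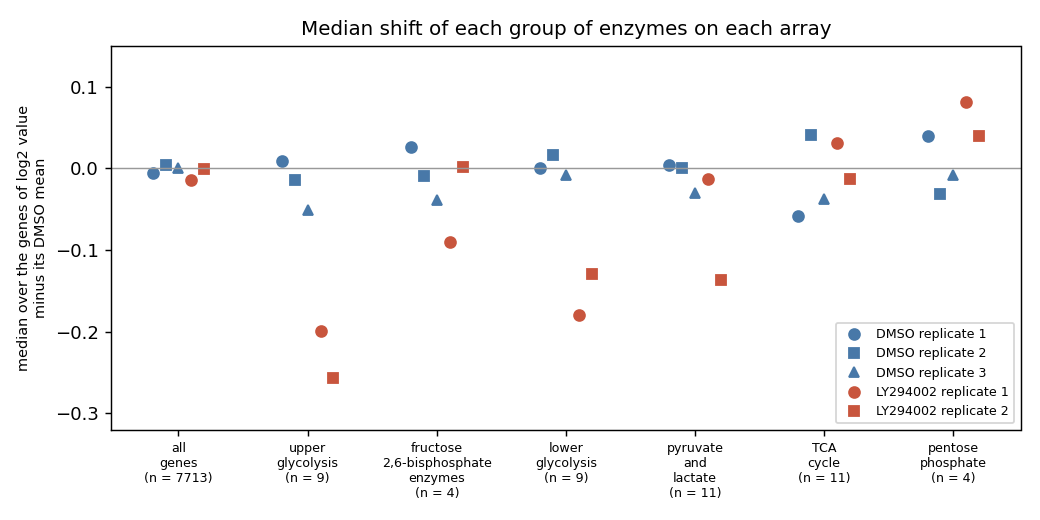
For all genes and for each group of enzymes, the vertical axis is the median over the genes of the log2 value minus its DMSO mean, on each array. The upper glycolysis medians are -0.20 and -0.26 on the LY294002 arrays and -0.05 to 0.01 on the DMSO arrays, while those of the TCA cycle overlap.

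Array by array, the median of lower glycolysis was -0.18 and -0.13 on LY294002 replicates 1 and 2 and -0.0079 to 0.02 on the DMSO arrays. The 2 LY294002 arrays were apart at pyruvate and lactate, at -0.01 and -0.14, where the first lay within the DMSO range of -0.03 to 0.0042. For the TCA cycle (0.03 and -0.01, DMSO -0.06 to 0.04) the arrays of the groups overlapped. The 7 members dimmer than the middle of the array had a median fold change of -0.041 and the 41 brighter ones of -0.10.

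The starts of the 4 genes that passed, and of HK2, which had the lowest fold change, are shown because HIF-1 and MYC are known to bind short motifs in promoters of glycolytic genes. Each sequence is the 250 bases before the gene's start in RefSeq (GRCh38.p14), read 5' to 3' on the gene's strand. Capitals mark the core of the hypoxia response element, ACGTG or GCGTG on either strand; the MYC E-box CACGTG contains ACGTG on both strands and is capitalised with it. They lie at chr11:18394313-18394562 (LDHA, plus strand, the first of its 2 listed starts), chrX:78103998-78104247 (PGK1, plus), chr10:97427568-97427817 (PGAM1, plus), chr19:17511399-17511648 (PGLS, plus) and chr2:74833877-74834126 (HK2, plus, also the first of 2).
LDHA: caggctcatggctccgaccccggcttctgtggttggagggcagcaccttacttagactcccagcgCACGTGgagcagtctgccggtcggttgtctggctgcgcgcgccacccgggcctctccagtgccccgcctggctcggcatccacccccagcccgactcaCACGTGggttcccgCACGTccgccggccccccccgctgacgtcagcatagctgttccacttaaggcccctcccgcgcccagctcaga
PGK1: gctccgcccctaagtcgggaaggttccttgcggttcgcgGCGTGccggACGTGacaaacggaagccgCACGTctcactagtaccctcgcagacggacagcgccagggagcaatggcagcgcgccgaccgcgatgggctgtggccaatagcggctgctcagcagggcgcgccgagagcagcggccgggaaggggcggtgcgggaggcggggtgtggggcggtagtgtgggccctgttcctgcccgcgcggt
PGAM1: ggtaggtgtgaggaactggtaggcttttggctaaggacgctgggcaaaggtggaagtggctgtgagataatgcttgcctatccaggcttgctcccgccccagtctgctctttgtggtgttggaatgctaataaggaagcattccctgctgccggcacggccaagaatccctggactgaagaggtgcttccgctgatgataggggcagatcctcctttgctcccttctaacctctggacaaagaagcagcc
PGLS: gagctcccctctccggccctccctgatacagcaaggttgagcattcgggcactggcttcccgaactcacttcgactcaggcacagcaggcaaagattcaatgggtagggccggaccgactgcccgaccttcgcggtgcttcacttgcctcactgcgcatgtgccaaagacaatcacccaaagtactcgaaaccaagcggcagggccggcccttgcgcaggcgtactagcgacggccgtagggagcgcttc
HK2: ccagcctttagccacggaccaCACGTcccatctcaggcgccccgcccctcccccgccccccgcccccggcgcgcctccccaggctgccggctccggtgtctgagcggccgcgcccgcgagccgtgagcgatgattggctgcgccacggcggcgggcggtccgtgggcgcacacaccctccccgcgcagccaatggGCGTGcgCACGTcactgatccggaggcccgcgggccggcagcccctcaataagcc
The LDHA window holds CACGTG at 2 places and a further ACGTG core, read on the other strand as CACGT. PGK1 has 3 cores and HK2 has 3, while the windows of PGAM1 and PGLS hold none of these letters. Promoters were listed for 46 of the 48 members, all but OGDH and PFKFB2. A gene with several listed starts, such as HK1 and PFKM with 7 each and PFKP with 4, was counted by its first only. Of the 46, 28 (60.9%) held ACGTG or GCGTG, against 50.9% of 6209 genes on the array and 43.1% of all 27305 promoters. Among the 14 members whose LY294002 arrays lay below all DMSO arrays, 9 did. ACGTG, with or without GCGTG, was in 15 of 46 (32.6%, against 20.8% on the array and 18.7% of all promoters), and in 7 of those 14. GCGTG, with or without ACGTG, was in 21 of 46 (45.7%, against 39.9% on the array and 31.9% of all promoters), and in 6 of those 14. CACGTG was in 5 of 46 (10.9%, against 7.99% on the array and 6.49% of all promoters), and in 2 of those 14. The 2 were LDHA and ALDOC. Of the other carriers, PDHB was higher with LY294002 without overlap, while PKLR and GAPDH overlapped between groups. The FOXO motif GTAAACA, on either strand, was in 0 of 46 (2.29% on the array, 2.98% of all promoters). A match is a description of letters in this window and not a binding site.

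Of 82 related genes outside these enzymes, 56 were measured and 0 passed with limma, while 6 were lower and 4 higher at an unadjusted p under 0.05. Over all genes 6.5% were lower and 10.6% higher by that rule. The median of the related genes was -0.0061. Among 15 regulators of glycolytic genes, HIF1A, the oxygen-sensitive subunit of HIF-1, read 8.61, 9.01 and 8.61 with DMSO and 9.66 and 9.69 with LY294002. It was thus higher on both LY294002 arrays, by 0.93 ± 0.14 (adjusted p = 0.0765), the opposite sign to most glycolytic enzymes. AKT2, a kinase downstream of PI3K, was at -0.22 ± 0.04 (adjusted p = 0.0827), on a dim probe set. Outside the naming rule and chosen after their values were seen, AKT1 was at 0.35 ± 0.11 (0.214) and FOXO3 at 0.77 ± 0.18 (0.139), both without overlap, and MYC at 0.0018 ± 0.09. Of 9 genes for transport of glucose, lactate and pyruvate, the fructose transporter SLC2A5 was at -0.46 ± 0.09 (adjusted p = 0.117), with 7.64 to 7.89 with DMSO and 7.40 and 7.27 with LY294002. The glucose transporter SLC2A3 was at 0.29 ± 0.10 (0.274), on a dim probe set. SLC2A1, also named after its value was seen, was at -0.10 ± 0.06 (0.445). Of 7 other enzymes of these pathways, PDK4 was at -0.17 ± 0.03 (0.104), also on a dim probe set. TIGAR, a fructose bisphosphatase, was at -0.23 ± 0.12 (0.427). Among 13 genes of glycogen and gluconeogenesis PCK2 was at -0.20 ± 0.09 (0.377) and UGP2 at -0.24 ± 0.13 (0.438). Among 12 of mitochondrial shuttles and anaplerosis, the aspartate aminotransferases GOT1 and GOT2 were at -0.15 ± 0.05 (0.259) and -0.23 ± 0.08 (0.26), each without overlap between the groups.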

How the data were processed

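Total RNA of 5 KMH2 samples was hybridised as biotin-labelled cRNA. The authors deposited log2 values, 1 per probe set, and affy, an R package, is the tool in the submitters' processing notes. The background correction and the probe summary are steps not given in the sources used here. Values were used as deposited. Of 8793 probe sets, 47 controls were left out and 8746 fitted. The platform annotation gave 7840 of these 1 symbol, 388 several and 518 none; the brightest per symbol stood for a gene (7713). LY294002 was compared with DMSO by limma 3.58.1 (lmFit, eBayes; R 4.3.3), group as the only term, 3 residual degrees of freedom, Benjamini-Hochberg over 8746 probe sets, threshold 0.05. Standard errors are the fit's. The fit was tested on simulated data. Members and lists were chosen with earlier results of these data known, so lists have counts and medians only. Named in full were members past the threshold or with an unadjusted p under 0.05, and in each step the 2 smallest p and the value nearest 0; of related genes, up to 2 per list. The number of arrays limits the precision. Alternatives changed the scaling (quantile normalization or median centring), dropped the dimmest 40% of probe sets or those with tied values, let the variance prior follow intensity (robust), added the replicate number as a block, averaged probe sets per gene, or left out each array. Figures: matplotlib 3.10.9.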

Additional observations from a re-analysis of the deposited data

How the results depend on the processing

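The count of members that fell (3) was 7 after quantile normalization, 5 after median centring, 5 without dim probe sets and 8 of 31 members without tied probe sets; that of members that rose (1) was 2, 1, 2 and 2 in these settings and 0 when the variance prior followed intensity. The 4 calls were kept in each of these, except PGLS with that prior. Genes past the threshold (70) numbered 299, 147, 203 of 4643, and 510 of 4783. With each array left out the counts were 0 to 0 for members and 0 to 4 for all genes. The labels share replicate numbers 1 and 2 between groups but nothing says that they pair the arrays (correlation of deviations 0.0021 and -0.21); with the replicate block 0 members fell, 0 rose and 0 genes passed, and the upper glycolysis median was -0.24. The causes were not tested. The variance prior enters no median and no overlap count, nor does the block enter an overlap count. Members with both LY294002 arrays below DMSO (14) were 23 after quantile normalization, 21 after median centring and 15 to 25 with an array left out. Those above (6) were 5 after quantile normalization and 6 to 10 with an array left out. With fewer arrays, groups separate more easily, and the shares over all genes were not counted in these settings.

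The median of lower glycolysis (-0.12) was -0.17 after quantile normalization, -0.17 without dim probe sets and -0.31 without tied probe sets (-0.18 to -0.093 with an array left out). That of upper glycolysis (-0.21) was -0.32 without tied probe sets (-0.26 to -0.18). After quantile normalization that of the TCA cycle was -0.072 and of the pentose phosphate genes 0.0080, which was 0.16 without tied probe sets. With an array left out, the fructose 2,6-bisphosphate enzymes ranged from -0.090 to 0.0016, pyruvate and lactate from -0.14 to -0.013, the TCA cycle from -0.03 to 0.03 and the pentose phosphate genes from 0.04 to 0.08. Of the 48 members 35, the 4 called ones among them, did not turn sign in any setting that measured them (ENO3 was at 0 without DMSO replicate 2). The sign turned for IDH3B (-0.056) and IDH2 (-0.034) after quantile normalization and for PFKFB4 (0.011) with the replicate block. It also turned for 13 members with an array left out, 7 of them without LY294002 replicate 2: HK1 ranged from -0.13 to 0.055, PFKFB2 from -0.16 to 0.035, PFKFB4 from -0.035 to 0.011, PDHX from -0.21 to 0.045, PDK2 from -0.078 to 0.011, PDK3 from -0.047 to 0.030, DLD from -0.094 to 0.029, IDH1 from -0.27 to 0.072, IDH2 from -0.10 to 0.083, IDH3B from -0.022 to 0.037, SUCLG1 from -0.12 to 0.0024, MDH2 from -0.056 to 0.037 and TALDO1 from -0.12 to 0.0017. A fit with 1 LY294002 array assumes that it varies like the DMSO arrays.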
